A study of Caenorhabditis elegans with 21 samples.

Results

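The MEG genes meg-1 (WBGene00010492), meg-2 (WBGene00010493), meg-3 (WBGene00001569) and meg-4 (WBGene00016485) of *C. elegans* were followed through mRNA-seq of early embryos and OMA-1 RIP-seq of young adults. The 4 genes were chosen by name and identifier, out of 47161 genes listed in any of the tables, and all 4 passed the filters on low values in every comparison. In early embryos, and with libraries scaled by TMM, meg-1 and meg-2 mRNA rose in *oma-1(zu405)* past both thresholds used here (log2 2 and adjusted p 0.05). meg-3 and meg-4 passed the adjusted p only, and with libraries scaled by total counts no MEG gene passed both thresholds and meg-3 and meg-4 passed neither. In young adults, all 4 mRNAs were called enriched with the OMA-1 protein that carries the zu405 change (log2 1, adjusted p 0.05), where 6.32% of genes were. None was called with OMA-1 without that change or in the strain that also carries a *fzy-1* mutation, where 9.12% and 9.14% of genes were. Tested directly, the difference between OMA-1 with and without the change was called for 0 of the 4. The difference between the *fzy-1* strain and the strain with the change alone was called for meg-1 and meg-3, and both calls were fragile.

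MEG proteins are intrinsically disordered, serine-rich proteins of the germ (P) granules, the RNA and protein condensates that are inherited by the germline blastomeres of the worm embryo. MEG-3 and MEG-4 form a gel-like layer on the granule surface and gather RNA into it, and MEG-1 and MEG-2 are needed for the fertility of the offspring of mothers that carry the mutations. The mRNAs are supplied by the mother, and the MBK-2 kinase and the PP2A phosphatase with its subunit PPTR-1 act on MEG proteins to dissolve or stabilize the granules. OMA-1 is a zinc finger RNA-binding protein of oocytes that is degraded after the first cell cycle, which MBK-2 phosphorylation sets off.

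The embryo groups were *fzy-1(D433N);oma-1(zu405)*, *oma-1(zu405)* and the wild type N2. zu405 is a temperature-sensitive gain-of-function allele that keeps OMA-1 from timely degradation, and *fzy-1* encodes the Cdc20-type activator of the anaphase promoting complex. The embryos, like the animals of the RIP-seq strains, came from cultures at 25 °C. They were collected by bleaching young adults and were early stages, and 2 of the 3 samples of each genotype were analysed here, named D1 and D3, C1 and C2, and A1 and A2 in the deposited tables. The RIP-seq strains were fzy-1;oma-1ts-gfp, oma-1ts-gfp and oma-1-gfp. The ts label stands for OMA-1 with P240L, the fzy-1 label for the D433N allele, and P240L is the amino acid change of zu405, and all 3 strains carry GFP on OMA-1. GFP-Trap beads were used to collect OMA-1 with its RNA (RIP), and total RNA of the same strain was the input, with 2 libraries of each. About 100000 animals went into a sample, and no untagged strain was analysed here, so RNA held by the beads themselves was not measured. With 2 libraries per group, the p-values measure the spread between these libraries, which may be technical.

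Library D1 stood apart. Spearman's rho across genes was 0.554 between D1 and D3, 0.987 between C1 and C2, and 0.993 between A1 and A2, and the 10 most abundant genes took 17.5% of the counts of D1 against 2.97% to 7.54% in the other libraries. Ribosomal RNA genes took 5.98% of the counts of D1 against 0.0525% to 1.04% in the other libraries, and the part of this in the double mutant values was not tested. edgeR put the biological coefficient of variation at 0.770 in the double mutant, 0.122 in *oma-1(zu405)* and 0.0820 in N2. Total counts lay between 3599426 and 18815357, and scaling factors between libraries (edgeR's TMM method) ran from 0.450 in D1 to 1.74 in A2. Embryo results are therefore given on more than one scale where the scale decides a call.

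All 4 genes lie on chromosome X of the WBcel235 annotation. meg-1 spans 13927036 to 13929634 and meg-2 spans 13922643 to 13926129, both on the minus strand, with 906 bp and 0 annotated genes between them. meg-3 spans 1986469 to 1989607 on the minus strand and meg-4 spans 1682954 to 1686419 on the plus strand, 300049 bp apart. Each gene has 1 annotated transcript, of 6 exons in meg-1 and meg-2 and 7 exons in meg-3 and meg-4, and 0 other genes overlap any of them. The exons sum to 2365 bp in meg-1, 2910 bp in meg-2, 2775 bp in meg-3 and 2712 bp in meg-4. meg-1 with meg-2 and meg-3 with meg-4 are related genes, so reads from stretches that a pair shares could have been split or lost in the authors' counting.

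The question in the embryos was whether MEG mRNA levels differed when OMA-1 was kept too long. Levels are given as normalized CPM, that is, counts divided by the TMM-scaled size of the library. The meg-1 level was 319.9 normalized CPM in C1 and 333 in C2 of *oma-1(zu405)*, against 38.5 in A1 and 39.4 in A2 of N2. The meg-2 level was 114 and 141 in *oma-1(zu405)*, against 11.6 and 13.9 in N2. Both libraries of *oma-1(zu405)* lay far above both N2 libraries for these neighbouring genes. On the log2 scale meg-1 was higher by 2.98 ± 0.15 (SE; edgeR quasi-likelihood test, adjusted p = 2.61e-16) and meg-2 by 3.24 ± 0.18 (SE; edgeR, adjusted p = 7.51e-16).

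The granule scaffold genes differed by less. The meg-3 level was 143 normalized CPM in C1 and 146 in C2, against 55.3 in A1 and 48.9 in A2, which gave 1.39 ± 0.15 on the log2 scale (SE; edgeR, adjusted p = 2.44e-09). The meg-4 level was 48.9 and 54.5 in *oma-1(zu405)*, against 16.05 and 17.1 in N2, which gave 1.56 ± 0.19 (SE; edgeR, adjusted p = 1.51e-08). The groups did not overlap for either gene, a pattern not counted over all genes, but neither gene passed the log2 fold change of 2. Thus 2 of the 4 MEG genes were called higher, where 11.6% of the 12520 genes tested were higher and 22.6% lower. At the adjusted p alone all 4 were higher, where 34.8% of genes were. In bulk embryos, more cells that hold an mRNA and more mRNA per cell cannot be told apart.

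The scale between libraries decided part of this. The median over all genes, as a log2 fold change, was -0.24 on the TMM scale and -1.51 on the scale of total counts. Of the genes called over the whole table, 34.0% were higher on the TMM scale and 5.58% on total counts. With total counts, meg-1 had a log2 fold change of 1.73 and meg-2 of 1.99, both under 2 (edgeR adjusted p = 8.43e-16 and 6.82e-15). For the scaffold genes it was 0.13 for meg-3 and 0.30 for meg-4, and neither passed the adjusted p (edgeR, 0.332 and 0.0984). Relative to the median of all genes the values hardly moved, at 3.22 on the TMM scale and 3.24 on total counts for meg-1, and at 1.63 and 1.64 for meg-3. When all 6 embryo libraries were fitted together, which brings in the spread of D1, meg-1 and meg-2 had log2 fold changes of 3.05 and 3.31 and an edgeR adjusted p of 0.0536 each. meg-3 and meg-4 had 1.46 and 1.63 in that fit, with edgeR adjusted p-values of 0.0575 and 0.0545. Over the 12520 genes tested, that fit called 0%.

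**Figure D1:**
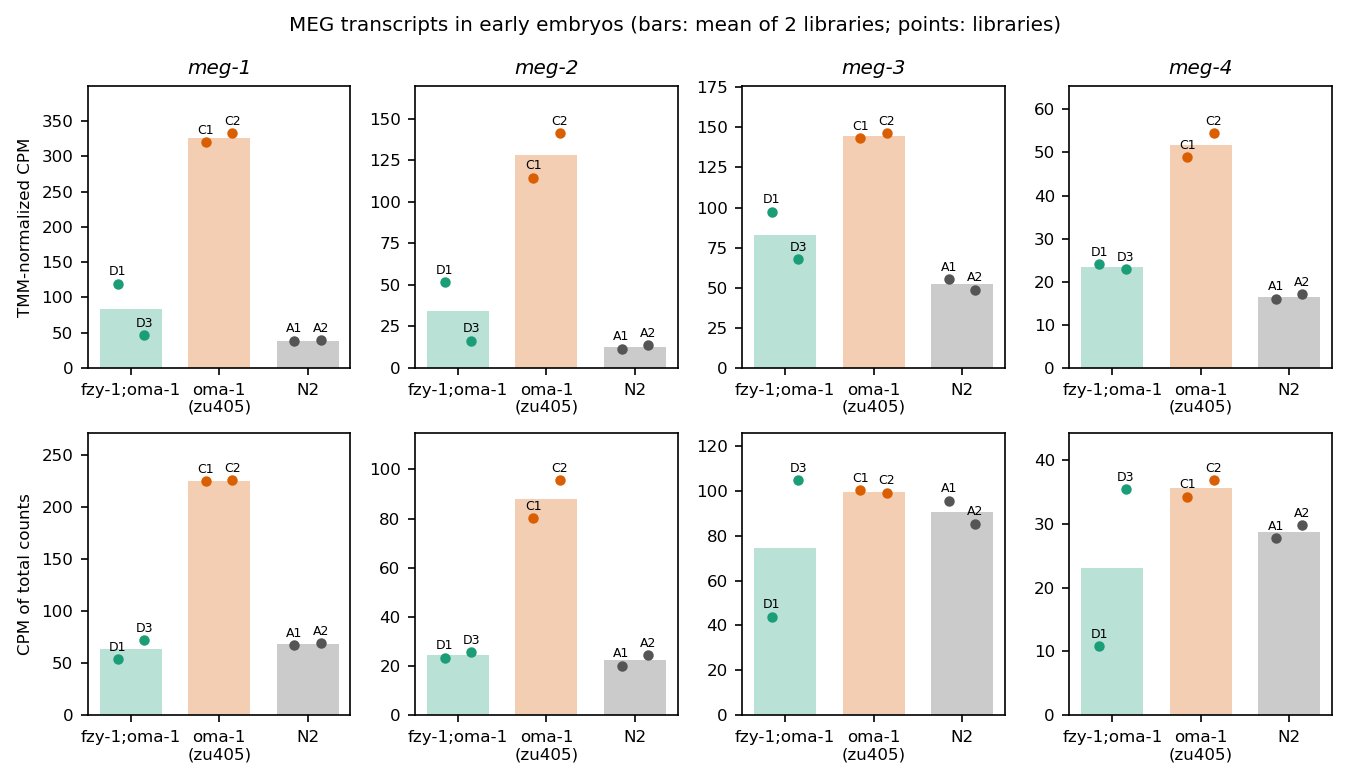
Levels of the 4 MEG mRNAs in each embryo library, as TMM-normalized CPM (top row) and as CPM of total counts (bottom row), where bars are the mean of 2 libraries and points are libraries. On both scales meg-1 and meg-2 stand highest in the C1 and C2 libraries of *oma-1(zu405)*, whereas meg-3 is at 99.2 and 100.3 in *oma-1(zu405)* and at 85.4 and 95.7 in N2 on total counts.

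The double mutant was compared with each of the other genotypes to ask whether the MEG levels differed once *fzy-1* was mutated as well. The meg-1 level was 119.7 normalized CPM in D1 and 46.6 in D3, and the meg-2 level was 51.8 and 16.5. The meg-3 level was 97.5 in D1 and 67.8 in D3, and the meg-4 level was 24.1 and 23.0. For all 4 genes both libraries of the double mutant lay below both libraries of *oma-1(zu405)* and above both libraries of N2. How many of all genes had this order was not counted. D3 lay near N2 for meg-1 and meg-2, whereas D1 lay between N2 and *oma-1(zu405)*. On total counts the order differed, with D1 below both N2 libraries for meg-1, meg-3 and meg-4, and the meg-3 level was 104.9 CPM in D3, above both libraries of *oma-1(zu405)*.

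Neither comparison of the double mutant called a MEG gene. Against *oma-1(zu405)* the log2 fold changes were -1.83 for meg-1 (95% interval -3.58 to -0.08), -1.77 for meg-2 (-3.57 to 0.02), -0.65 for meg-3 (-1.96 to 0.65) and -0.97 for meg-4 (-2.14 to 0.19), with edgeR adjusted p-values between 0.585 and 0.672. The unadjusted p was 0.0437 for meg-1 and 0.0518 for meg-2. The share called over all 10477 genes was 0% as well, with 8.22% at an unadjusted p under 0.05, and DESeq2 called 0 of the 4 MEG genes and 0.239% of all genes. One library decided these values. Without D1, they were -2.61 for meg-1 and -2.75 for meg-2, and both were called (edgeR adjusted p = 1.77e-28 and 9.33e-29), where 18.6% of genes were called in either direction. Without D3, they were -1.23 and -1.08, and neither was called (edgeR adjusted p = 1.41e-05 and 0.000418). In such a fit the lone library is assumed to vary like the *oma-1(zu405)* libraries.

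Against N2, which also served the comparison above, the log2 fold changes of the double mutant were 1.03 for meg-1 (95% interval -0.55 to 2.61), 1.34 for meg-2 (-0.45 to 3.13), 0.62 for meg-3 (-0.59 to 1.84) and 0.47 for meg-4 (-0.69 to 1.63), with edgeR adjusted p-values between 0.643 and 0.696. The share called over 12684 genes was 0%, with 3.99% at an unadjusted p under 0.05, and 0 MEG genes were under that p. DESeq2 called 3.04% of all genes and 0 MEG genes. On total counts the direction turned for meg-1 (-0.11), meg-3 (-0.28) and meg-4 (-0.31), while relative to the median of all genes these values were 0.71, 0.53 and 0.51. Without D1 the log2 fold changes were 0.27 for meg-1, 0.40 for meg-2 and 0.38 for meg-3, and without D3 they were 1.57, 2.00 and 0.85. None of these passed a log2 fold change of 2, and in such a fit the lone library is assumed to vary like the N2 libraries. All 4 intervals hold 0 and reach past 1.6 on the log2 scale, so that neither equal levels nor a clear difference from N2 was shown.

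Ratios between MEG genes within a library do not depend on the scale between libraries. Counts per kb of exon of meg-1 and meg-2 together, divided by those of meg-3 and meg-4 together, gave 1.55 in D1 and 0.770 in D3 of the double mutant, 2.51 in C1 and 2.60 in C2 of *oma-1(zu405)*, and 0.786 in A1 and 0.897 in A2 of N2. The neighbouring pair thus outweighed the scaffold pair in *oma-1(zu405)* and in D1, and not in N2 or D3. With 2 libraries per genotype no permutation test of this ratio could pass 0.05, and none was made. The D1 ratio rests on 194 counts of meg-1, 84 of meg-2, 158 of meg-3 and 39 of meg-4.

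The order of the 4 genes changed accordingly. Per kb of exon, the order from high to low in *oma-1(zu405)* was meg-1 (135.3 and 140.8 normalized CPM per kb in C1 and C2), meg-3 (51.6 and 52.8), meg-2 (39.3 and 48.6) and meg-4 (18.04 and 20.1). In N2 it was meg-3 (19.9 and 17.6 in A1 and A2), meg-1 (16.3 and 16.7), meg-4 (5.92 and 6.30) and meg-2 (3.997 and 4.78). Of the double mutant libraries, D1 had the order of *oma-1(zu405)* and D3 that of N2. No neighbours in these orders overlapped between the libraries of N2 or of *oma-1(zu405)*.

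**Figure D2:**
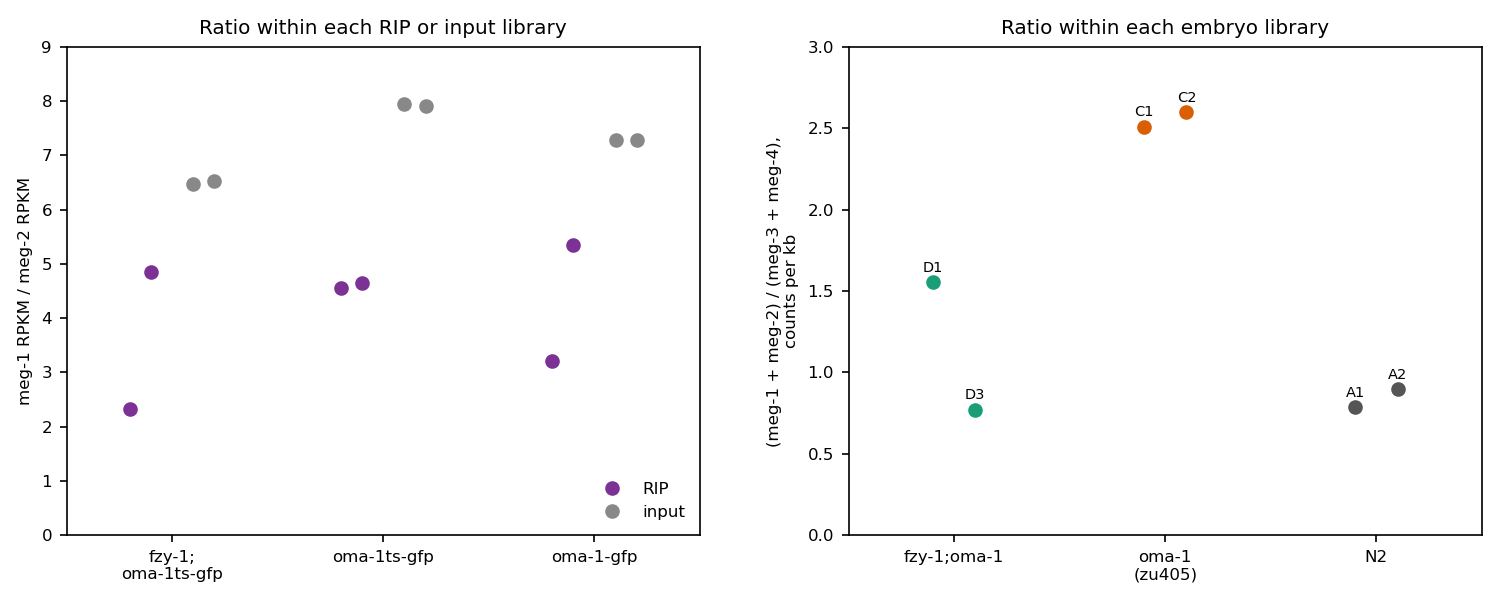
Left, meg-1 RPKM divided by meg-2 RPKM in each RIP and input library of the 3 GFP strains. Right, counts per kb of meg-1 plus meg-2 divided by those of meg-3 plus meg-4 in each embryo library. All 6 RIP libraries lie between 2.33 and 5.35 and all 6 input libraries between 6.48 and 7.95, and in embryos C1 and C2 lie highest at 2.51 and 2.60.

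Other transcripts of the germ plasm were looked at beside the MEG genes through lists of genes. The lists are given on the TMM scale against N2, on which 11.6% of genes were called higher and 22.6% lower. Of 8 regulators of MEG proteins and granule polarity, 4 were called higher in *oma-1(zu405)* and 0 lower, and the list had a median of 1.74 on the log2 scale. They included mex-5 (3.14) and mex-6 (2.76), which encode zinc finger proteins that hold granules to the posterior, and paa-1 (2.71), the PP2A scaffold subunit (edgeR adjusted p = 1.75e-16, 1.04e-15 and 4.26e-15). mbk-2, the MEG kinase, was at 1.25, and pptr-1 was at 0.57, both past the adjusted p but under the log2 fold change of 2 (edgeR, 1.42e-08 and 0.00084).

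Of 11 constitutive P granule components, 7 were called higher and 0 lower, and the median was 2.11. Among them were deps-1 (3.88), the RGG-box scaffold gene pgl-1 (2.98) and its relative pgl-3 (3.43) (edgeR adjusted p = 4.91e-18, 2.92e-16 and 1.45e-13). Of 9 P lineage mRNAs and regulators, 8 were called higher, with a median of 3.17, led by nos-2 (3.51), a Nanos gene whose mRNA gathers in P granules, grif-1 (3.35) and pos-1 (3.398), a zinc finger regulator of translation (edgeR adjusted p = 3.49e-17, 5.69e-17 and 7.93e-17). The MEG genes had a median of 2.27. On total counts, a scale looked at for the lists after their values were seen, 0 of 8 regulators, 2 of 11 granule components and 3 of 9 P lineage genes were called higher, where 2.40% of genes were called higher and 40.7% lower, and pgl-2 was called lower. The genes still called higher were pgl-3, deps-1, nos-2, pos-1 and grif-1. In both comparisons of the double mutant, 0 genes of the 3 lists were called, where the share over all genes was 0% as well.

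Summed levels of oocyte and early zygotic markers ordered the groups as the MEG levels did on the TMM scale. Those of differentiation markers did not. The summed level of 10 oocyte genes was 241 to 1096 normalized CPM in the double mutant, 2383 to 2476 in *oma-1(zu405)* and 208 to 218 in N2. Of the 8 tested, 7 were called higher in *oma-1(zu405)* against N2, where 11.6% of all genes were. On total counts 4 of the 8 were, where 2.40% of all genes were. perm-2 was at 0 in both libraries of the double mutant. The summed level of 9 early zygotic genes was 221 in D1 and 51.5 in D3 of the double mutant, 289.6 to 387 in *oma-1(zu405)* and 26.0 to 32.0 in N2. Of the 8 tested, 2 were called higher in *oma-1(zu405)*, or 1 on total counts, beside the same shares over all genes. The summed level of 10 differentiation genes was 378 in D1 and 1000.2 in D3, 734 to 819.9 in *oma-1(zu405)* and 959 to 1027 in N2. In *oma-1(zu405)* 1 of 10 was called lower, where 22.6% of all genes were. On total counts 4 of 10 were called lower, where 40.7% of all genes were. In both of these lists D3 was nearer to N2 than D1 was. Sperm genes summed to at most 6.78 and yolk genes to at most 24.7 normalized CPM in any embryo library. The part of oocyte RNA or of embryo stage in the MEG differences was not tested.

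In young adults, the inputs gave the level of each MEG mRNA in whole animals, in RPKM (reads scaled by gene length and by library size). meg-1 had 66.7 and 42.8 RPKM in the inputs of fzy-1;oma-1ts-gfp, 68.1 and 71.2 in oma-1ts-gfp, and 85.7 and 62.2 in oma-1-gfp. meg-2 had 10.3 and 6.55, 8.56 and 9.01, and 11.7 and 8.55 RPKM in the inputs of the same strains in that order. meg-3 had 19.1 and 13.2, 19.9 and 22.6, and 22.6 and 17.9 RPKM, and meg-4 had 7.09 and 5.60, 6.07 and 6.44, and 7.28 and 7.62 RPKM. In every input meg-1 was highest, followed by meg-3, meg-2 and meg-4, and the ranges of meg-2 and meg-4 overlapped over the 6 inputs.

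No MEG gene was called in the inputs, although some groups of 2 libraries did not overlap, a pattern not counted over all genes. Both inputs of fzy-1;oma-1ts-gfp lay below those of oma-1ts-gfp for meg-1 and meg-3. For meg-4, both inputs of oma-1ts-gfp and both of fzy-1;oma-1ts-gfp lay below those of oma-1-gfp. The log2 differences of log2(RPKM + 1) were between -0.22 and 0.07 for oma-1ts-gfp against oma-1-gfp, between -0.39 and 0.01 for fzy-1;oma-1ts-gfp against oma-1ts-gfp, and between -0.44 and -0.21 for fzy-1;oma-1ts-gfp against oma-1-gfp. None passed in any of the 3 comparisons (limma adjusted p from 0.342 to 0.988), where 4.72%, 9.34% and 5.1% of genes were called in either direction, and 0 MEG genes were under an unadjusted p of 0.05, where 16.8%, 26.5% and 17% of genes were. The widest 95% interval was that of meg-2, from -0.98 to 0.63 for oma-1ts-gfp against oma-1-gfp.

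Enrichment was the difference of log2(RPKM + 1) between RIP and input, tested within each strain with limma, and it was called past a log2 difference of 1 and an adjusted p of 0.05. In oma-1ts-gfp, meg-1 had 164 and 188 RPKM in the RIP libraries, against 68.1 and 71.2 in the inputs. meg-2 had 35.9 and 40.3 RPKM in RIP, against 8.56 and 9.01 in input. Both genes were higher in each RIP library than in either input, an order not counted over all genes. meg-3 had 48.0 and 56.0 RPKM in RIP, against 19.9 and 22.6 in input, and meg-4 had 13.7 and 14.2, against 6.07 and 6.44.

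All 4 MEG mRNAs were called enriched in oma-1ts-gfp, where 6.32% of the 9761 genes tested were. The log2 enrichment was 1.32 for meg-1 (standard error 0.12, limma adjusted p = 0.000165), 2.00 for meg-2 (0.14, 6.18e-05), 1.25 for meg-3 (0.14, 0.000371) and 1.05 for meg-4 (0.17, 0.00172). Counted from the most enriched gene, meg-2 was number 80, meg-1 number 306, meg-3 number 364 and meg-4 number 563. The median over all genes was -0.34. These calls were kept in all settings tried, including without each of the 4 libraries in turn, where the enrichment of meg-2 ran from 1.92 to 2.08 and that of meg-4 from 1.01 to 1.08.

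In oma-1-gfp, which has OMA-1 without the P240L change, meg-1 had 96.7 and 79.2 RPKM in RIP, against 85.7 and 62.2 in input. meg-2 had 30.1 and 14.8 RPKM in RIP, against 11.7 and 8.55 in input, so that its RIP libraries lay above its inputs but differed from each other by more than the inputs did. meg-3 had 23.9 and 18.8, against 22.6 and 17.9, and meg-4 had 11.5 and 5.35, against 7.28 and 7.62. For meg-1, meg-3 and meg-4 the RIP and input ranges overlapped, and overlap was not counted over all genes.

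No MEG mRNA was called enriched in oma-1-gfp, where 9.12% of the 9743 genes tested were. The log2 enrichment was 0.26 for meg-1 (95% interval -0.40 to 0.92), 1.01 for meg-2 (0.20 to 1.81), 0.07 for meg-3 (-0.55 to 0.69) and 0.08 for meg-4 (-0.71 to 0.87), and the limma adjusted p was 0.0504 for meg-2 and between 0.5001 and 0.875 for the others. The median over all genes was -0.37. meg-2 was the 1 MEG gene under an unadjusted p of 0.05 (0.0199), where 50.3% of genes were. Its call turned on the setting, since it was called with libraries centred on their medians (1.31, limma adjusted p = 0.0159), when all 12 libraries were fitted together (1.01, limma adjusted p = 0.0405) and without the second RIP library (1.49).

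In fzy-1;oma-1ts-gfp, meg-1 had 52.6 and 52.2 RPKM in RIP, against 66.7 and 42.8 in input, and meg-2 had 22.6 and 10.8 in RIP, against 10.3 and 6.55 in input. meg-3 had 15.03 and 10.47, against 19.1 and 13.2, and meg-4 had 7.60 and 4.84, against 7.09 and 5.60. Of the 4, only meg-2 had both RIP libraries above both inputs, by a small margin, an order not counted over all genes. The log2 enrichment was -0.03 for meg-1 (95% interval -0.72 to 0.67), 0.85 for meg-2 (0.01 to 1.69), -0.32 for meg-3 (-1.01 to 0.38) and -0.05 for meg-4 (-0.73 to 0.64). None was called (limma adjusted p from 0.0956 to 0.949), where 9.14% of the 10849 genes tested were called enriched and the median was -0.41. meg-2 alone was under an unadjusted p of 0.05 (0.0472), where 50.2% of genes were. With median centring, meg-1 (0.35), meg-3 (0.06) and meg-4 (0.33) turned positive and meg-2 was called (1.22, limma adjusted p = 0.0354). Without its second RIP library meg-2 was also called, at 1.35 (limma adjusted p = 0.0114).

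**Figure D3:**
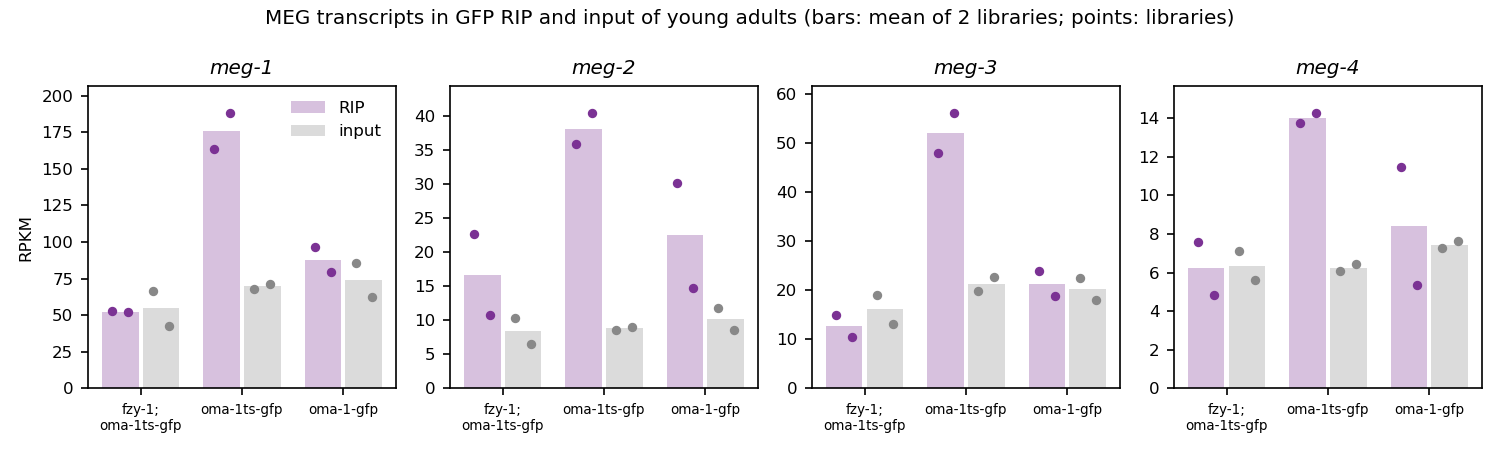
RPKM of the 4 MEG mRNAs in RIP and input of young adults of the 3 strains, where bars are the mean of 2 libraries and points are libraries. In oma-1ts-gfp the RIP libraries of all 4 genes lie above the inputs, for meg-1 at 164 and 188 against 68.1 and 71.2.

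A call in one strain and none in another does not show a difference between strains, so the enrichments were also set against each other, in a single limma fit over the 12 libraries. Enrichment in fzy-1;oma-1ts-gfp minus that in oma-1ts-gfp was -1.35 for meg-1 (standard error 0.34, limma adjusted p = 0.0315) and -1.57 for meg-3 (0.35, 0.0180), and both were called lower, where 3.6% of the 11736 genes were. For meg-2 it was -1.15 (95% interval -2.28 to -0.01, limma adjusted p = 0.187) and for meg-4 -1.09 (-2.02 to -0.16, 0.129). All 4 values had an unadjusted p under 0.05, where 26.3% of genes did. These calls were fragile, since that of meg-1 was lost without 7 of the 8 libraries of both strains, each left out in turn (-1.66 to -1.03), and that of meg-3 without 5 of 8 (-1.82 to -1.32). With no filter on low values meg-1 stayed at -1.35 with a limma adjusted p of 0.0544.

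Enrichment in oma-1ts-gfp minus that in oma-1-gfp was 1.06 for meg-1 (limma adjusted p = 0.0994), 0.99 for meg-2 (0.310), 1.18 for meg-3 (0.0727) and 0.97 for meg-4 (0.222). None was called, where 1.26% of genes were called higher, although meg-1, meg-3 and meg-4 were under an unadjusted p of 0.05, where 20.7% of genes were. This comparison shares its oma-1ts-gfp libraries with the one above, so the opposite signs are not independent. meg-3 was called with median centring (1.27, limma adjusted p = 0.0467), and meg-4 without the first RIP library of oma-1-gfp (1.46, limma adjusted p = 0.0401). The difference of fzy-1;oma-1ts-gfp minus oma-1-gfp was between -0.39 and -0.12 for the 4 genes. The widest 95% interval, that of meg-2, ran from -1.29 to 0.98, and none was called (limma), where 0.0852% of genes were called in either direction. None was under an unadjusted p of 0.05 either, where 4.08% of genes were.

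**Figure D4:**
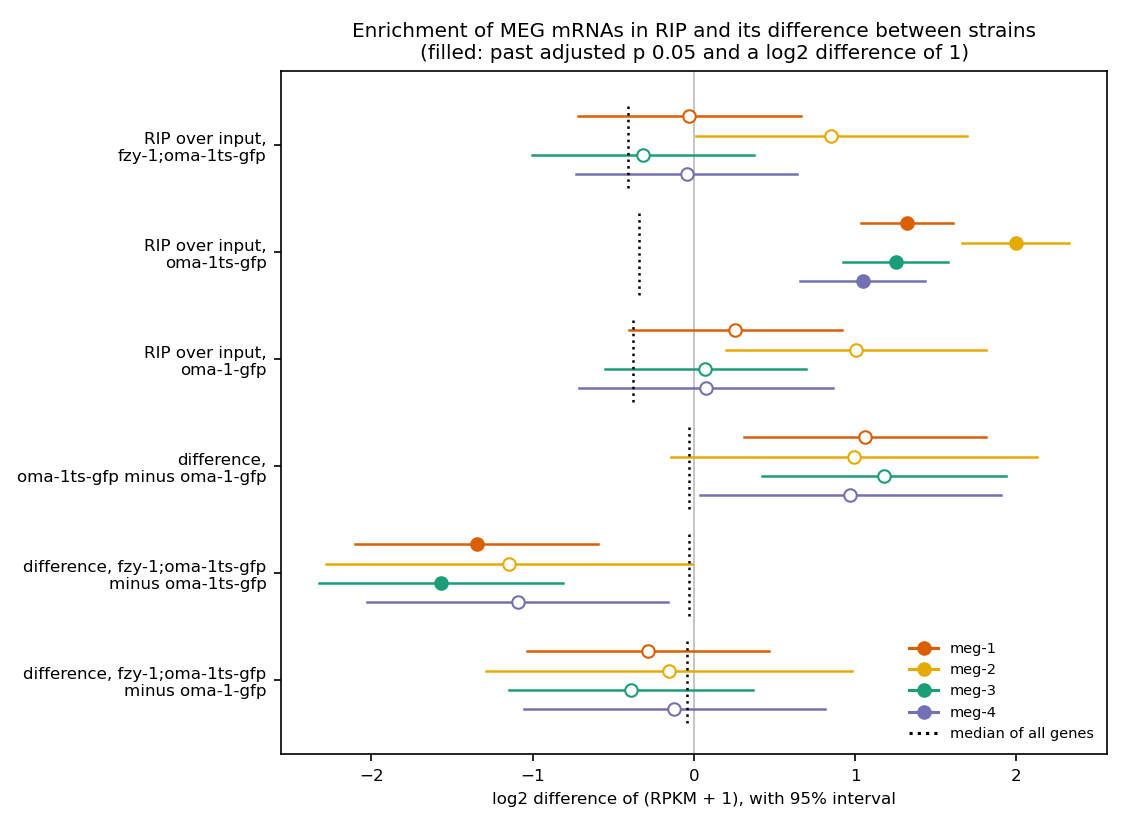
log2 enrichment of each MEG mRNA in RIP over input in the 3 strains, and the differences of enrichment between strains, with 95% intervals, on the scale of log2(RPKM + 1). Filled points passed an adjusted p of 0.05 and a log2 difference of 1, and dotted lines mark the median of all genes. All 4 points are filled in oma-1ts-gfp, at 1.05 to 2.00, and meg-1 and meg-3 are filled in the difference of fzy-1;oma-1ts-gfp minus oma-1ts-gfp.

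The balance between MEG mRNAs was compared between RIP and input within libraries. The ratio of meg-1 to meg-2 RPKM lay between 2.33 and 5.35 in the 6 RIP libraries and between 6.48 and 7.95 in the 6 inputs, without overlap, so that meg-2 made up more of the pair in RIP in all 3 strains. The ratio of meg-2 to meg-4 was 2.23 to 2.97 in RIP and 1.12 to 1.61 in input, also without overlap. The ratio of meg-3 to meg-4 was 1.98 to 3.93 in RIP and 2.35 to 3.51 in input, and that of meg-1 to meg-3 was 3.35 to 4.99 in RIP and 3.15 to 3.797 in input, and both of these overlapped. The 4 ratios were chosen after the values were seen, so they are given as a description and no p-value is given for them.

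The same lists were looked at in RIP, where 6.32% of all genes were called enriched and 21.2% depleted in oma-1ts-gfp. In that strain, 0 of 11 constitutive P granule components were called enriched and 1 was depleted, glh-1, a Vasa-type helicase gene (-1.24, limma adjusted p = 0.000295), with a median of -0.24. Of 9 P lineage mRNAs and regulators 0 were enriched and gld-1, a repressor of translation in the germline, was depleted (-1.56, limma adjusted p = 0.000106), with a median of -0.11. Of the 7 tested regulators of MEG proteins 0 were enriched and the polarity kinase gene par-1 was depleted (-1.11, limma adjusted p = 0.00247), with a median of 0.22. At the adjusted p alone 3 of these 7 were higher and 2 lower, a share not counted over all genes. The highest was mex-6 at 0.98, just under the log2 difference of 1 (limma adjusted p = 0.000878). In lists of this size called counts of 0 and 1 lie close to the shares of 6.32% and 21.2%. In oma-1-gfp each list had 0 genes enriched and 1 depleted, which were paa-1 (-1.02), deps-1 (-1.12) and mex-1 (-1.22), where 19.4% of genes were depleted (limma adjusted p = 0.0319, 0.0138 and 0.00908). In fzy-1;oma-1ts-gfp 0 were enriched and deps-1 alone was depleted (-1.09, limma adjusted p = 0.0294), where 21% of genes were. In the differences between strains, 0 genes of the granule and regulator lists were called. Of the P lineage list, mex-1 was called higher and gld-1 lower in oma-1ts-gfp minus oma-1-gfp, where 1.26% of genes were higher and 3.87% lower. gld-1 was called higher in fzy-1;oma-1ts-gfp minus oma-1ts-gfp, where 5.86% of genes were. No test of these lists against the MEG genes was made.

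**Figure D5:**
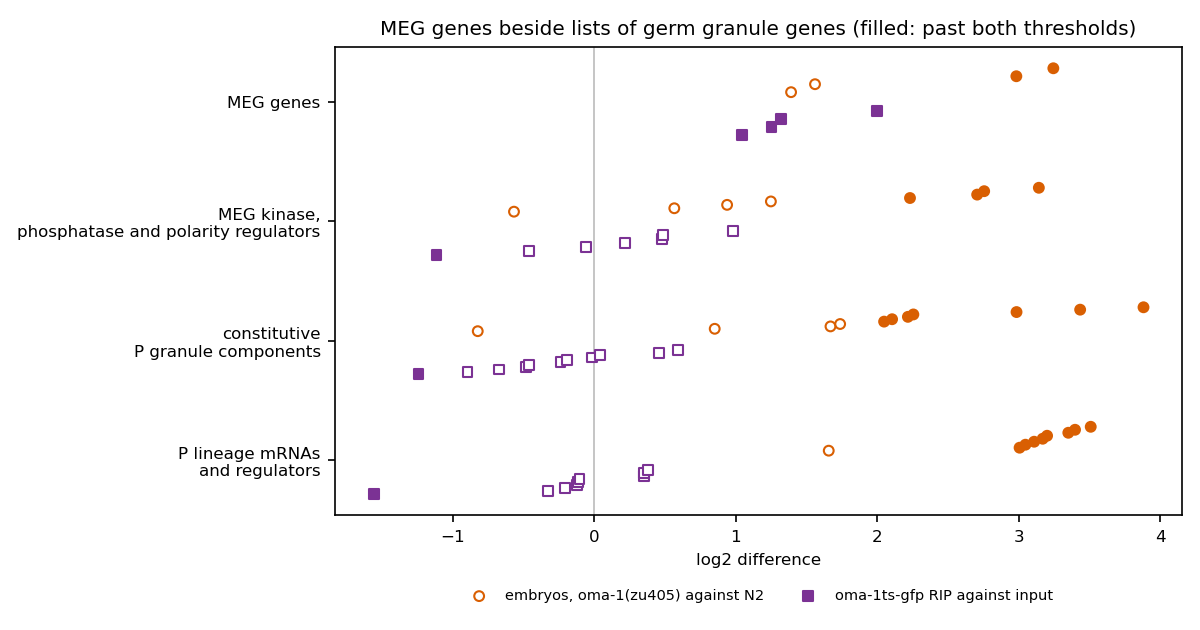
log2 difference of each gene in the MEG group and in 3 lists, for *oma-1(zu405)* against N2 in embryos on the TMM scale (circles) and for RIP against input in oma-1ts-gfp (squares). Filled symbols passed both thresholds, and in the RIP comparison the 4 MEG genes are the filled squares above 0, at 1.05 to 2.00. The open square of mex-6, at 0.98, lies just under the log2 difference of 1.

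Markers of tissues and of stage were also looked at in RIP and input. The summed level of 6 yolk protein genes of the adult intestine was 938 to 953 RPKM in RIP and 1755 to 1938 in input of fzy-1;oma-1ts-gfp, 223 to 251 in RIP and 1114 to 1140 in input of oma-1ts-gfp, and 1075 to 1312 in RIP and 1600 to 1653 in input of oma-1-gfp. In fzy-1;oma-1ts-gfp, oma-1ts-gfp and oma-1-gfp, 3, 6 and 4 of the 6 genes were called depleted, where 21%, 21.2% and 19.4% of all genes were. The summed level of 10 oocyte genes was 2646 to 2733, 1713 to 1959 and 2816 to 2868 RPKM in the RIP libraries of the same strains in that order, and 1504 to 1818 over all inputs. Of the 10, 4, 1 and 4 were called enriched, where 9.14%, 6.32% and 9.12% of all genes were. In each strain 2 of 10 were called depleted, beside the depleted shares given above. The summed level of 9 early zygotic genes was low, at 19.6 to 21.5 RPKM in RIP and 8.64 to 10.3 in input of oma-1ts-gfp. In that strain 4 of 6 tested were called enriched, while 0 of 4 tested were called in each of the other strains. The sum was also higher in RIP than in input in fzy-1;oma-1ts-gfp (8.86 to 12.7 against 6.31 to 7.17) and in oma-1-gfp (8.07 to 10.8 against 5.78 to 7.39). Sperm genes summed to 196 to 392 RPKM in the inputs of fzy-1;oma-1ts-gfp, 43.7 to 44.4 in oma-1ts-gfp and 5.87 to 9.07 in oma-1-gfp. In the RIP libraries of these strains in that order they summed to 43.3 to 73.6, 17.3 to 23.1 and 5.47 to 7.13 RPKM. In fzy-1;oma-1ts-gfp, 10 differentiation genes summed to 204 to 309 RPKM in RIP and 137 to 151 in input. They summed to 40.9 to 55.3 and 111 to 113 in oma-1ts-gfp, and to 191 to 246 and 125 to 126 in oma-1-gfp. Of 9, 8 and 8 tested in that order of strains, 1, 4 and 1 were called depleted and 1, 1 and 0 enriched, beside the shares given above. The RIP libraries of oma-1ts-gfp thus held less RNA of the yolk and differentiation genes than those of the other strains. The part of this in the enrichment of the MEG mRNAs was not tested.

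Over the 12 RIP and input libraries, the levels of meg-1 and meg-3 ran most alike among the members, with a Pearson's r of 0.964 on log2(RPKM + 1), while meg-2 and meg-3 had 0.728. Among 4635 genes, K07A1.15 (0.985) and F35A5.8 (0.973) were the most like meg-1, and K07A1.3 (0.972) and D1054.5 (0.969) the most like meg-3. timm-17B.2 (0.983) and F22G12.4 (0.978) were the most like meg-2, and Y14H12B.1 (0.944) and Y73F8A.27 (0.943) the most like meg-4. Over the 6 embryo libraries and 7462 genes, the r of members with one another was between 0.953 and 0.996. The closest other genes were unc-85 and R04D3.2 for meg-1, cki-1 and lis-1 for meg-2, ZK1010.2 and F34D6.1 for meg-3, and let-99 and mlh-1 for meg-4, with an r of 0.998 or more. These values describe libraries that share strain, depth and RIP or input kind, and with so few libraries many genes reach a high r.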

How the data were processed

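Embryo reads were aligned by the authors with HISAT2 2.0.5 and counted on genes with HTSeq 0.6.0, and the deposited values are raw counts. The deposited RIP-seq values are RPKM of 18887 genes, multiplied by 1000, and were divided by 1000 here. The genome build is not given in the sources used here, and coordinates are those of the WBcel235 annotation. Fold changes and p-values of the authors' own comparisons were not used, nor were 32 further columns of per-sample values.

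Embryo counts were tested per pair of genotypes with edgeR 4.0.16 (TMM, quasi-likelihood, Benjamini-Hochberg) in R 4.3.3 for genes with at least 10 counts in 2 libraries, and RPKM with limma 3.58.1 with an intensity trend on log2(RPKM + 1), which understates changes of low genes, for genes with at least 1 RPKM in 2 libraries. DESeq2 1.42.0 was an embryo alternative. The fits were tested on simulated data. A count of 0 allows up to 0.159 to 0.833 CPM (3 counts), which covers counting error only. The depth of the RIP-seq libraries is unknown here. The named genes are the 4 MEG genes, up to 3 genes per list with the smallest adjusted p among those called, and the 2 most alike per MEG gene. Members and lists were chosen with earlier results of these data known. mbk-2, pptr-1, pgl-2 and perm-2 were named after their values were seen.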

Additional observations from a re-analysis of the deposited data

Results flagged for a closer look

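Tests of the difference itself pointed to 5 values. Enrichment in fzy-1;oma-1ts-gfp minus that in oma-1ts-gfp was -1.35 for meg-1 and -1.57 for meg-3, both lower in the strain with the *fzy-1* mutation (limma adjusted p = 0.0315 and 0.0180). For gld-1, which encodes a translational repressor of the germline, this difference was 2.69 (limma adjusted p = 0.0114), and that of oma-1ts-gfp minus oma-1-gfp was -2.14 (limma adjusted p = 0.0443). gld-1 had 207 and 316 RPKM in RIP and 73.0 and 184 in input of fzy-1;oma-1ts-gfp, 23.2 and 20.0 in RIP and 65.5 and 65.3 in input of oma-1ts-gfp, and 70.6 and 58.2 in RIP and 32.3 and 55.5 in input of oma-1-gfp. For mex-1, which encodes a zinc finger protein of the germline blastomeres, oma-1ts-gfp minus oma-1-gfp was 1.11 (limma adjusted p = 0.0447), with 114 and 118 RPKM in RIP and 129.8 and 122 in input of oma-1ts-gfp, and 64.6 and 62.8 in RIP and 162 and 138 in input of oma-1-gfp. The oma-1ts-gfp libraries enter all of these values.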

How the results depend on the processing

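Of the values of single MEG genes under another setting, 458 kept their direction and their call on both thresholds together, 17 lost a call, 12 gained one and 29 turned direction. Those that turned were uncalled. Of the 458, 4 were no longer under an adjusted p of 0.05 (meg-3 and meg-4 in *oma-1(zu405)* against N2, on total counts and in one fit of all 6 libraries) and 11 came under it. Total counts in place of TMM left 0 MEG genes called in *oma-1(zu405)* against N2 (meg-1 1.73, meg-2 1.99). That setting also turned meg-1 (-0.11), meg-3 (-0.28) and meg-4 (-0.31) in the double mutant against N2. One fit of all 6 libraries left 0 MEG genes called in *oma-1(zu405)* against N2 as well (3.05 and 3.31), where 0% of all genes were called. Median centring gave 1 call in each of oma-1-gfp (meg-2, 1.31), fzy-1;oma-1ts-gfp (meg-2, 1.22) and the difference of oma-1ts-gfp minus oma-1-gfp (meg-3, 1.27), and turned meg-1 (0.35), meg-3 (0.0565) and meg-4 (0.33) in fzy-1;oma-1ts-gfp and meg-4 (-0.24) in the input of fzy-1;oma-1ts-gfp against oma-1ts-gfp. One fit of all 12 libraries called meg-2 in oma-1-gfp (1.01, 1 call), and with no filter meg-1 (-1.35) lost its call in fzy-1;oma-1ts-gfp minus oma-1ts-gfp, leaving 1. The causes were not tested. Deviations of RIP and input libraries with the same number correlated at 0.0816 in oma-1-gfp, 0.0391 in oma-1ts-gfp and 0.288 in fzy-1;oma-1ts-gfp, so the numbers were not taken as pairs. With the replicate number as a block, meg-2 in oma-1-gfp (1.01, 1 call) and meg-3 in oma-1ts-gfp minus oma-1-gfp (1.18, 1 call) gained a call, and meg-2 in fzy-1;oma-1ts-gfp minus oma-1ts-gfp did too (-1.15, limma adjusted p = 0.0488). The embryo columns carry no replicate numbers, so no block could be fitted there.

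With each library left out in turn, the called MEG genes numbered 2 in *oma-1(zu405)* against N2 and 4 in oma-1ts-gfp throughout, 0 to 2 in the double mutant against *oma-1(zu405)* and in fzy-1;oma-1ts-gfp minus oma-1ts-gfp, and 0 to 1 in oma-1-gfp, in fzy-1;oma-1ts-gfp and in oma-1ts-gfp minus oma-1-gfp. In the double mutant against *oma-1(zu405)*, meg-1 ran from -2.61 to -1.23 and meg-2 from -2.75 to -1.08. The enrichment in fzy-1;oma-1ts-gfp ran from -0.34 to 0.29 for meg-1, from 0.35 to 1.35 for meg-2 and from -0.32 to 0.23 for meg-4, and that in oma-1-gfp from 0.52 to 1.49 for meg-2, from -0.0914 to 0.24 for meg-3 and from -0.41 to 0.56 for meg-4. The difference of fzy-1;oma-1ts-gfp minus oma-1ts-gfp ran from -1.66 to -1.03 for meg-1 and from -1.82 to -1.32 for meg-3, and that of oma-1ts-gfp minus oma-1-gfp from 0.48 to 1.46 for meg-4. That of fzy-1;oma-1ts-gfp minus oma-1-gfp ran from -0.60 to 0.0299 for meg-1, from -0.65 to 0.35 for meg-2 and from -0.61 to 0.37 for meg-4. In the inputs, oma-1ts-gfp against oma-1-gfp ran from -0.30 to 0.16 for meg-1, from -0.38 to 0.0348 for meg-2 and from -0.0866 to 0.23 for meg-3. The input of fzy-1;oma-1ts-gfp ran from -0.37 to 0.21 for meg-2 and from -0.14 to 0.16 for meg-4 against oma-1ts-gfp, and from -0.55 to 0.0336 for meg-2 against oma-1-gfp.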
